A study of Mus musculus with 16 samples.

Results

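Interferon response genes are the genes that cells switch on when type I interferon, interferon alpha or beta, binds its receptor. A list of 39 such genes of the mouse was described in transplanted liver tumours under a checkpoint antibody and a kinase inhibitor. The genes were listed by symbol and not by their signal, but with earlier results of these data known. Counts of members set beside all genes therefore describe the list and are no independent test. For each gene 1 probe set was kept, the one with the highest mean over the 16 arrays. Of the 39 listed genes, 35 were measured, among 17097 genes tested in all. The other 4, Isg15, Oas1a, Bst2 and Ifi44, were not analysed here.

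The tumours had grown under the skin of male C57BL/6 mice from Hepa1-6, a mouse hepatocellular carcinoma line, implanted at an age of 5 weeks in 50% Matrigel. The Combination group (n = 4) received the antibody and cabozantinib together, the AntiPD1 group (n = 3) the hamster antibody J43 against the T cell checkpoint receptor PD-1, the Cabozantinib group (n = 5) the oral kinase inhibitor cabozantinib, and the Placebo group (n = 4) hamster IgG. Cabozantinib was given daily at 30 mg/kg, and the antibody or the IgG in 5 injections of 10 mg/kg, 3 days apart. The labels do not say if IgG was also injected in the Cabozantinib group. Tumours were taken on day 14, and total RNA of each was hybridised to 1 Affymetrix array. All 4 groups rest on 1 cell line placed outside the liver, and the labels do not say whether each tumour came from its own mouse, so p-values measure the spread between these tumours only.

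Type I interferon acts through the receptor chains Ifnar1 and Ifnar2 and the kinases Jak1 and Tyk2, which activate Stat2, a partner of Irf9. Together with Irf9 it binds a short promoter element, the interferon-stimulated response element, and switches on antiviral genes, sensors of foreign RNA, and feedback factors such as Irf7 and Usp18. In tumours, cells of the immune infiltrate, the vessel wall and the cancer itself can all carry the response.

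Values are deposited log2 signals, so a difference of 1 is a doubling, and array medians ran from 4.92 to 5.13. The liver markers were present in every group, with mean signals of Alb, which encodes albumin, between 12.95 and 13.17 and of Afp, which encodes the fetal liver protein alpha-fetoprotein, between 12.50 and 12.67. Skeletal muscle markers averaged 12.15 in Combination replicate 4, 11.40 in AntiPD1 replicate 2 and 10.99 in Cabozantinib replicate 4, and 4.39 to 8.92 in the other tumours. Adipocyte markers averaged 10.07 in Combination replicate 1 and 10.52 in Cabozantinib replicate 2, and 5.40 to 9.35 elsewhere. In bulk tumour RNA, fewer cells of a type and less RNA per cell cannot be told apart. Every test of a gene below, unless another is named, was limma's moderated test in 1 model of the 4 groups, with Benjamini-Hochberg adjustment over all 17097 genes and a threshold of 0.05, and a difference is called the gene's change only where it passed.

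The interferon response genes stood highest in the tumours given the antibody alone. AntiPD1 had the highest of the 4 group means for 33 of the 35 members, a position it held for 3266 of the 17097 genes. The exceptions were Usp18, highest in Placebo, and Isg20, highest in Cabozantinib. Cabozantinib had the lowest mean for 23 members, a position it held for 3243 of the 17097 genes.

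The mean deviation of the 35 members from their averages over all tumours was 0.04, 0.08, 0.04 and -0.19 in the 4 Combination tumours and 0.72, 0.45 and 0.48 in the 3 AntiPD1 tumours. It was -0.34, -0.80, 0.11, -0.28 and 0.02 in the 5 Cabozantinib tumours and 0.15, -0.25, 0.02 and -0.25 in the 4 Placebo tumours. All 3 AntiPD1 tumours lay above the other 13, and the other 3 groups overlapped.

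Single tumours weighed on this picture. AntiPD1 replicate 1 had the highest signal of all 16 tumours for 23 members, and Cabozantinib replicate 2, 1 of the adipocyte-rich tumours, the lowest for 24. Cabozantinib replicate 2 also had the lowest macrophage, T cell and fibroblast marker levels of the 16, at 7.68, 6.70 and 7.20. Combination replicates 1 and 2, also rich in adipocyte markers, had mean member deviations of 0.04 and 0.08. The part of these cell types in the low signals of Cabozantinib replicate 2 was not tested. Combination replicate 4, 1 of the muscle-rich tumours, was the lowest of its group for 26. The members' median SD between tumours was 0.16 in Combination, 0.16 in AntiPD1, 0.43 in Cabozantinib and 0.27 in Placebo, beside 0.14, 0.12, 0.16 and 0.13 over all genes in the same order of groups.

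**Figure D1:**
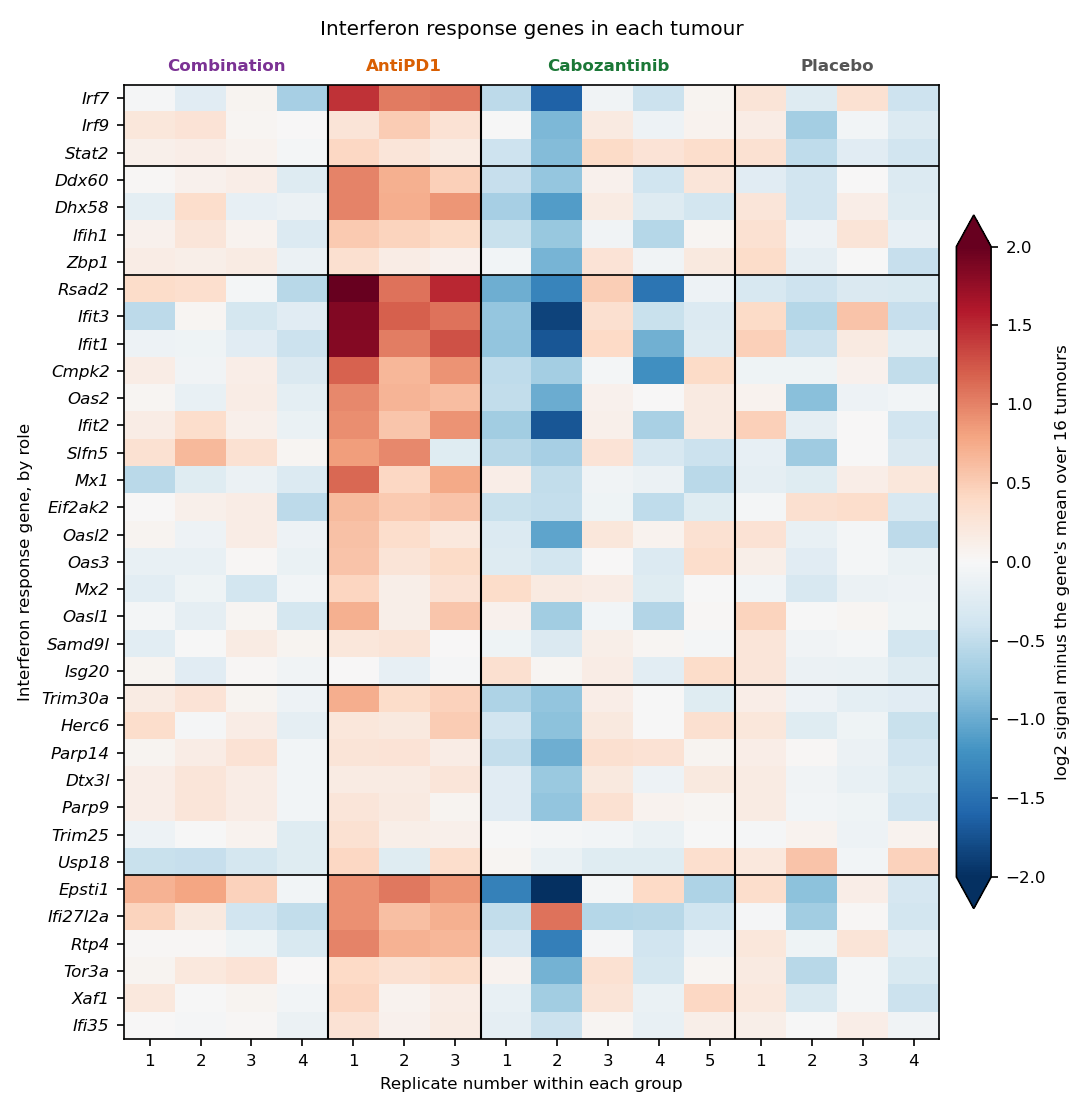
Each square is the log2 signal of 1 interferon response gene (down the page, grouped by role) in 1 tumour (across, by group and replicate) minus that gene's mean over the 16 tumours. The AntiPD1 columns are mostly red, with replicate 1 the highest of 16 for 23 genes, and Cabozantinib replicate 2 is mostly blue, the lowest for 24.

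Promoters of some members are shown because they carry the element of this pathway. The interferon-stimulated response element was searched on both strands as its core, GAAA and GAAA with any 2 bases (NN) between them, in RefSeq promoters of the mouse build GRCm38.p6, from 250 bases before to 50 after each gene's start. The promoter table held 24 of the 35 measured members, and 10 of these 24 (41.7%) carried the element, against 3.59% of the 13605 measured genes with a promoter there. The core of the interferon gamma element, searched as TTCNNNGAA, was in 4 of the 24 (16.7%), against 8.76% of the same genes. A match describes the letters in the window and no binding. The members were listed as known targets of this pathway, so the share is a description of the list.

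Windows are printed for 6 of the members that rose with the antibody, chosen because the element lies before the gene's start. Capitals mark the element, which reads TTTC, NN, TTTC where it lies on the other strand. The windows are Rsad2 at chr12:26456538-26456597 (minus strand), Ifit1 at chr19:34640760-34640838 (plus), Ifit3 at chr19:34583348-34583441 (plus), Ddx60 at chr8:61928009-61928086 (plus), Slfn5 at chr11:82951922-82951981 (plus) and Trim30a at chr7:104465195-104465254 (minus), each printed 5′ to 3′ along its gene's strand.
Rsad2: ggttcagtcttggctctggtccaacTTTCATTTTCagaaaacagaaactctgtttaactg
Ifit1: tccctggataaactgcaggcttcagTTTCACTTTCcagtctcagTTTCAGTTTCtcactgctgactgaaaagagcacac
Ifit3: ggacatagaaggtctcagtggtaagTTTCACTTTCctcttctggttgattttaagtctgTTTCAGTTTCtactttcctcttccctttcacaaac
Ddx60: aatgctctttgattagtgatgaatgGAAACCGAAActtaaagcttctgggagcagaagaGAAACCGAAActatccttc
Slfn5: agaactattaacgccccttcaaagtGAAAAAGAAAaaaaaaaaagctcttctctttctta
Trim30a: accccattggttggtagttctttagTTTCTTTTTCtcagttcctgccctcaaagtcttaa
The element began 120 bases before the start of Rsad2, 155 before that of Slfn5 and 36 before that of Trim30a. Ifit1, Ifit3 and Ddx60 each held 2 copies, at 104 and 85, 156 and 122, and 53 and 19 bases before the start.

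The first question was what the antibody alone changed. No single member passed the test in AntiPD1 against Placebo with limma, where 0.0175% of all genes were called higher and 0.0117% lower, but 34 of the 35 had a higher mean in AntiPD1. The median log2 difference of the members was 0.49, beside -0.03 over all genes, 43.2% of which were higher. In 22 members every AntiPD1 tumour lay above every Placebo tumour, as did 9.22% of all genes. At an unadjusted p under 0.05, 21 members were higher, beside 8.42% of all genes.

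The antibody was then asked about over both backgrounds, as the mean of its difference without cabozantinib (AntiPD1 against Placebo) and with it (Combination against Cabozantinib). Here 15 of the 35 members rose and 0 fell, where 8.33% of all genes rose and 9.66% fell. A rise over both backgrounds means a rise of this average, not of each part, and no member passed in either part alone. The median over the 35 was 0.38, beside -0.03 over all genes. The 15 were the RNA sensors Ddx60, Dhx58 and Ifih1, the transcription factor Irf7, the antiviral genes Rsad2, Cmpk2, Ifit1, Ifit2, Ifit3, Oas2, Eif2ak2 and Slfn5, the ubiquitin ligase Trim30a, and Epsti1 and Rtp4. These calls depended on single tumours. With AntiPD1 replicate 1 left out, and again with replicate 2 left out, 4 members passed, Ddx60, Dhx58, Rsad2 and Trim30a. The count was 6 without Combination replicate 2, 9 without Combination replicate 3, 7 without Placebo replicate 2 and 8 without Placebo replicate 4. The shares of all genes called in these fits are not given here, so the drop cannot be called particular to the members.

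With cabozantinib as the background, Combination against Cabozantinib, 0 members passed with limma, where 0.00585% of all genes were called higher and 0% lower. Of the 35, 30 had the higher mean in Combination, with a median of 0.25 beside -0.03 over all genes. Cabozantinib replicate 2 carried much of this, and without it the median was 0.05 and 24 members were higher. No member had every Combination tumour above every Cabozantinib tumour, as 2.05% of all genes did. At an unadjusted p under 0.05, 5 members were higher and 1 lower, beside 9.91% and 12.6% of all genes.

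**Figure D2:**
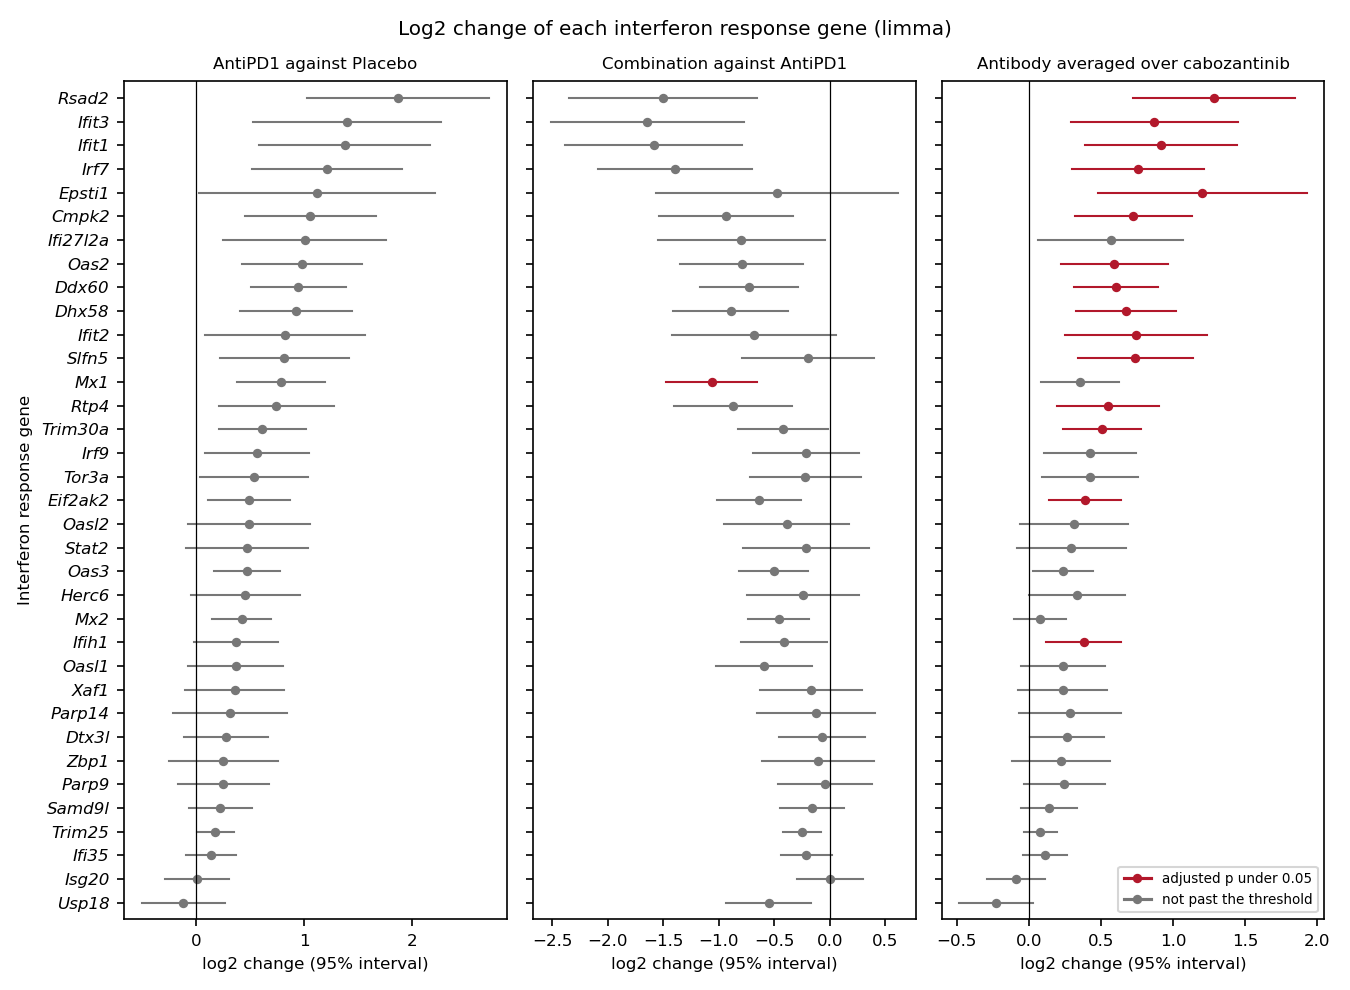
Points are log2 changes of the 35 measured members with 95% intervals, for AntiPD1 against Placebo, Combination against AntiPD1 and the antibody averaged over cabozantinib. Red marks an adjusted p under 0.05, reached by 0, 1 (Mx1, lower) and 15 members (all higher), and the first and second panels share the AntiPD1 tumours.

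Among the sensors of foreign RNA, Ddx60, a helicase that assists RIG-I signalling, had 6.06, 6.13, 6.17 and 5.77 in Combination and 7.03, 6.75 and 6.51 in AntiPD1. It had 5.57, 5.26, 6.11, 5.64 and 6.27 in Cabozantinib and 5.81, 5.65, 6.04 and 5.76 in Placebo. Each AntiPD1 tumour was above the other 13 tumours, and the other groups overlapped. Over both backgrounds Ddx60, whose promoter holds 2 copies of the element, rose by 0.60 ± 0.14 on the log2 scale (SE, limma adjusted p = 0.0147). Its antibody difference was 0.95 without cabozantinib and 0.26 with it.

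Dhx58 encodes LGP2, which modulates RIG-I and MDA5. Its signals were 6.22, 6.77, 6.25 and 6.29 in Combination and 7.39, 7.14 and 7.29 in AntiPD1. Cabozantinib tumours had 5.75, 5.29, 6.57, 6.16 and 6.05 and Placebo tumours 6.66, 6.03, 6.54 and 6.16. Again the 3 AntiPD1 tumours were above all others, with the next highest in Combination replicate 2. Dhx58 rose by 0.67 ± 0.16 over both backgrounds (SE, limma adjusted p = 0.0169). Its other probe sets had group means under the lowest array median of 4.92. They had 0.38 and 0.05 in AntiPD1 minus Placebo, and 0.04 and 0.03 in Combination minus Cabozantinib.

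Ifih1, which encodes the double-stranded RNA sensor MDA5, had 8.37, 8.54, 8.37 and 8.02 in Combination and 8.81, 8.74 and 8.67 in AntiPD1. The values were 7.85, 7.54, 8.22, 7.72 and 8.33 in Cabozantinib and 8.59, 8.19, 8.56 and 8.13 in Placebo. AntiPD1 was highest, but its lowest tumour was close to the highest of Placebo. Ifih1 rose by 0.38 ± 0.12 over both backgrounds (SE, limma adjusted p = 0.0434), a call kept in 11 of 25 other settings. Zbp1, a sensor of Z-form nucleic acid, had group means of 10.02 in Combination, 10.13 in AntiPD1, 9.82 in Cabozantinib and 9.87 in Placebo, and did not pass in any comparison.

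Irf7 was the 1 of the 3 measured transcription factors that rose. Irf7 amplifies the response by driving interferon alpha genes. Its signals were 7.38, 7.17, 7.46 and 6.74 in Combination and 8.84, 8.43 and 8.47 in AntiPD1. They were 6.88, 5.78, 7.33, 6.98 and 7.45 in Cabozantinib and 7.65, 7.14, 7.71 and 6.98 in Placebo. The gap between AntiPD1 and the next tumour, Placebo replicate 3, was wider than the range within AntiPD1. Irf7 rose by 0.76 ± 0.22 over both backgrounds (SE, limma adjusted p = 0.0291). The parts of this average were 1.21 without cabozantinib and 0.30 with it.

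Irf9 and Stat2, the partners that bind the element, did not pass in any comparison. Irf9 averaged 8.12 ± 0.13 in Combination (SD, n = 4), 8.33 ± 0.14 in AntiPD1 (n = 3), 7.83 ± 0.43 in Cabozantinib (n = 5) and 7.76 ± 0.35 in Placebo (n = 4). Stat2 averaged 8.12 ± 0.08, 8.34 ± 0.13, 8.01 ± 0.56 and 7.86 ± 0.36 in the same groups and order. Their antibody differences over both backgrounds were 0.43 ± 0.15 for Irf9 (SE, limma adjusted p = 0.0598) and 0.30 ± 0.18 for Stat2 (adjusted p = 0.259).

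Of the antiviral effectors, Rsad2 had the largest difference of the list in AntiPD1 against Placebo. Rsad2 encodes viperin, a radical enzyme that makes a chain-terminating nucleotide. It had 8.87, 8.84, 8.46 and 7.95 in Combination and 10.50, 9.59 and 10.01 in AntiPD1. Cabozantinib tumours spread over 7.52, 7.18, 9.0, 7.04 and 8.41, and Placebo tumours lay together at 8.18, 8.09, 8.21 and 8.19. Every AntiPD1 tumour was above every other tumour, and 3 of the 5 Cabozantinib tumours were below all of Placebo. The AntiPD1 mean was 3.65 times that of Placebo (log2 difference 1.87 ± 0.40, SE, limma adjusted p = 0.111). Over both backgrounds Rsad2 rose by 1.28 ± 0.26 (SE, limma adjusted p = 0.0123), and its other 2 probe sets had AntiPD1 minus Placebo differences of 1.85 and 1.94. Cmpk2, a nucleotide kinase gene beside Rsad2, had 7.20, 6.97, 7.17 and 6.75 in Combination and 8.22, 7.71 and 7.94 in AntiPD1. It had 6.54, 6.37, 7.0, 5.82 and 7.42 in Cabozantinib and 6.96, 6.96, 7.13 and 6.56 in Placebo. Its AntiPD1 tumours were also the top 3 of 16. Cmpk2 rose by 0.72 ± 0.19 over both backgrounds (SE, limma adjusted p = 0.0218).

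The 3 measured Ifit genes encode proteins that bind viral RNA. Ifit1 had 5.98, 5.99, 5.85 and 5.65 in Combination and 7.91, 7.11 and 7.35 in AntiPD1. In Cabozantinib it had 5.29, 4.36, 6.47, 5.12 and 5.81, and in Placebo 6.55, 5.65, 6.25 and 5.88. The 4 Combination tumours lay within the Cabozantinib range, while the 3 AntiPD1 tumours were above all others. Ifit1 rose by 0.92 ± 0.25 over both backgrounds (SE, limma adjusted p = 0.0243), with 1.37 without cabozantinib and 0.46 with it.

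Ifit3 had 7.02, 7.58, 7.18 and 7.31 in Combination and 9.39, 8.74 and 8.62 in AntiPD1. The Cabozantinib values were 6.76, 5.69, 7.86, 7.08 and 7.26 and the Placebo values 7.92, 6.97, 8.11 and 7.08. Its pattern was that of Ifit1, with AntiPD1 above all other tumours and Cabozantinib replicate 2 the lowest. Ifit3 rose by 0.87 ± 0.27 over both backgrounds (SE, limma adjusted p = 0.0402). Ifit2 had 8.93, 9.12, 8.88 and 8.64 in Combination and 9.71, 9.34 and 9.68 in AntiPD1. It had 8.08, 7.07, 8.87, 8.13 and 8.95 in Cabozantinib and 9.25, 8.59, 8.79 and 8.39 in Placebo. Here Placebo replicate 1 came close to the lowest AntiPD1 tumour. Ifit2 rose by 0.74 ± 0.23 over both backgrounds (SE, limma adjusted p = 0.0390).

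Oas2 makes the messenger that activates RNase L. Its signals were 6.10, 5.92, 6.21 and 5.86 in Combination and 7.02, 6.75 and 6.68 in AntiPD1. They were 5.57, 5.06, 6.14, 6.07 and 6.24 in Cabozantinib and 6.13, 5.23, 5.96 and 6.01 in Placebo. AntiPD1 did not overlap any other group, and the rest overlapped. Oas2 rose by 0.59 ± 0.17 over both backgrounds (SE, limma adjusted p = 0.0315), with 0.98 without cabozantinib and 0.20 with it. The related Oas3, Oasl1 and Oasl2 did not pass, with antibody differences of 0.24, 0.24 and 0.32.

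Eif2ak2 encodes PKR, the kinase that stops translation on double-stranded RNA. It had 6.49, 6.58, 6.63 and 5.95 in Combination and 7.11, 7.0 and 7.05 in AntiPD1. Cabozantinib tumours had 6.03, 6.00, 6.40, 5.97 and 6.24 and Placebo tumours 6.45, 6.80, 6.83 and 6.16. Placebo replicates 2 and 3 were next below AntiPD1. Eif2ak2 rose by 0.39 ± 0.12 over both backgrounds (SE, limma adjusted p = 0.0360), a call kept in 12 of 25 other settings.

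Slfn5, a member of the Schlafen family, differed from the other genes in its tumours. It had 5.45, 5.79, 5.44 and 5.18 in Combination and 5.98, 6.10 and 4.90 in AntiPD1. It had 4.59, 4.48, 5.41, 4.82 and 4.71 in Cabozantinib and 4.97, 4.42, 5.14 and 4.85 in Placebo. AntiPD1 replicate 3 lay within the Placebo range, and all 4 Combination tumours lay above Placebo. The Cabozantinib and Placebo means, 4.80 and 4.85, were under the lowest array median of 4.92, so background limits the size of its difference. Slfn5 rose by 0.74 ± 0.19 over both backgrounds (SE, limma adjusted p = 0.0193).

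The Mx genes encode dynamin-like GTPases that trap viral particles. Mx1 had 6.25, 6.56, 6.68 and 6.52 in Combination and 7.94, 7.21 and 7.55 in AntiPD1. It had 6.94, 6.30, 6.73, 6.67 and 6.26 in Cabozantinib and 6.62, 6.55, 6.93 and 7.03 in Placebo. Combination overlapped Cabozantinib and Placebo, and AntiPD1 stood above all 3. The antibody difference of Mx1 over both backgrounds was 0.36 ± 0.13 (SE, limma adjusted p = 0.0648). Mx2 averaged 5.30 ± 0.14 in Combination (SD, n = 4), 5.76 ± 0.15 in AntiPD1 (n = 3), 5.57 ± 0.23 in Cabozantinib (n = 5) and 5.33 ± 0.12 in Placebo (n = 4), and did not pass in any comparison. The exonuclease gene Isg20 and Samd9l, a restriction factor gene, had group means within 10.35 to 10.54 and 9.70 to 9.92 and did not pass either.

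**Figure D3:**
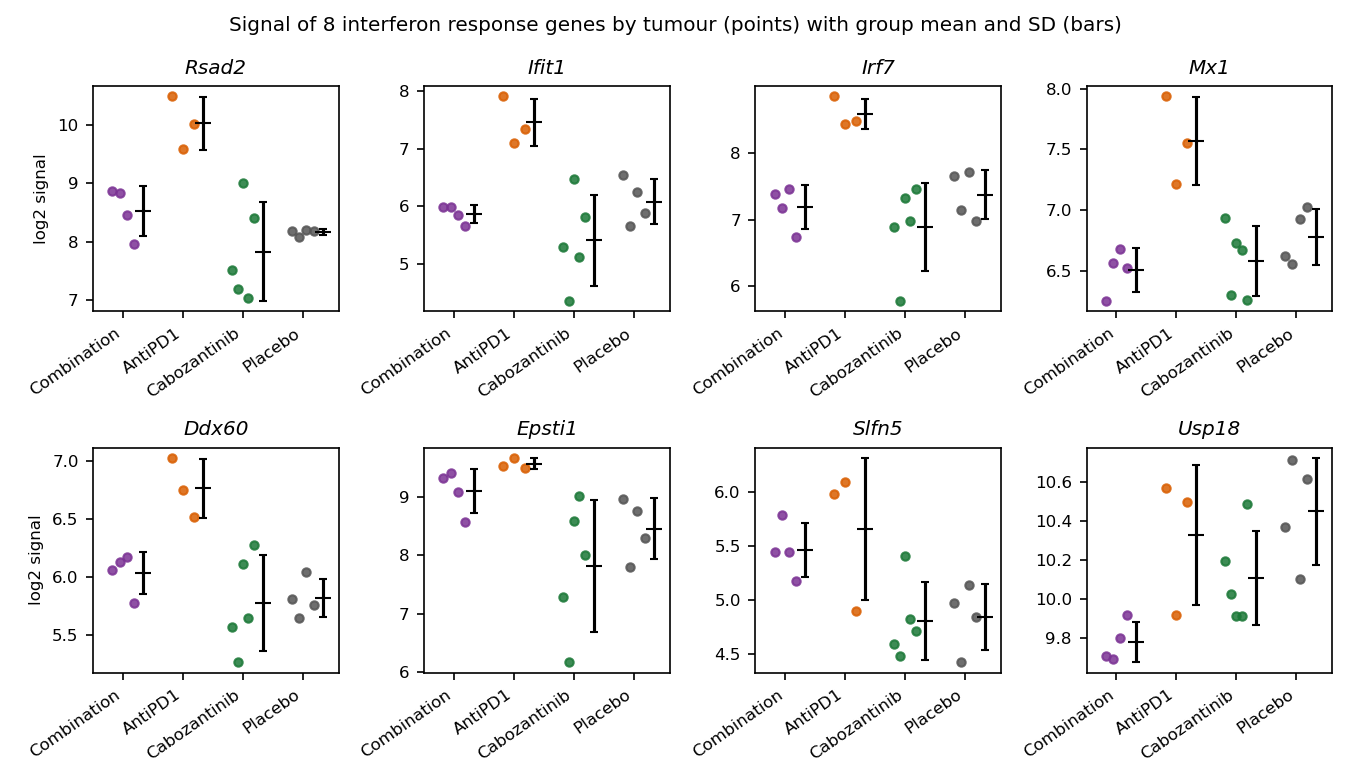
Each point is the log2 signal of 1 tumour for 8 interferon response genes, with the group mean and SD as bars, in the Combination, AntiPD1, Cabozantinib and Placebo groups. AntiPD1 stands above every other tumour for Rsad2, Ifit1, Irf7, Mx1, Ddx60 and Epsti1, Slfn5 has 1 AntiPD1 tumour at 4.90, and Usp18 is lowest in Combination.

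Among the measured enzymes of the ubiquitin, ISG15 and ADP-ribose systems, Trim30a was the 1 that rose. Trim30a, a ubiquitin ligase that dampens inflammatory signalling, had 10.38, 10.49, 10.28 and 10.12 in Combination and 10.94, 10.59 and 10.68 in AntiPD1. It had 9.60, 9.43, 10.36, 10.21 and 9.98 in Cabozantinib and 10.35, 10.11, 10.03 and 9.99 in Placebo. The order of the group means was AntiPD1, Combination, Placebo and Cabozantinib, and only AntiPD1 overlapped no other group. Trim30a rose by 0.51 ± 0.13 over both backgrounds (SE, limma adjusted p = 0.0189). Herc6, Parp9, Parp14, Dtx3l and Trim25, which encode ligases and ADP-ribosyltransferases, did not pass, with antibody differences of 0.33, 0.25, 0.29, 0.26 and 0.08.

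Usp18, which removes ISG15 from proteins and blocks the interferon receptor, went the other way. It had 9.70, 9.69, 9.80 and 9.92 in Combination and 10.57, 9.92 and 10.50 in AntiPD1. It had 10.20, 10.02, 9.91, 9.91 and 10.49 in Cabozantinib. Placebo had 10.37, 10.71 and 10.62 in replicates 1, 2 and 4 and its lowest signal in replicate 3, with a group mean of 10.45 ± 0.27 (SD, n = 4). All 4 Combination tumours were below all 4 Placebo tumours. In Combination against Placebo Usp18 fell by 0.67 ± 0.17 on the log2 scale (SE, limma adjusted p = 0.0291), the 1 member called of 35, where 3.71% of all genes were called higher and 6.64% lower. The call was lost without Combination replicate 1, without Combination replicate 2, without Placebo replicate 2 or without Placebo replicate 4. Over the 35 members the median of Combination against Placebo was 0.12, and 22 were higher. This median rested on single tumours, at 0.0073 without Placebo replicate 4, 0.07 without Placebo replicate 2, 0.08 without Combination replicate 3, 0.22 without Placebo replicate 1 and 0.21 without Combination replicate 4.

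Of the genes with other or less known roles, Epsti1, named for its induction in stromal contact, had 9.33, 9.42, 9.09 and 8.58 in Combination and 9.54, 9.68 and 9.51 in AntiPD1. It had 7.28, 6.16, 8.59, 9.03 and 8.02 in Cabozantinib and 8.97, 7.80, 8.77 and 8.30 in Placebo. The AntiPD1 tumours lay close together and above all others, while the Cabozantinib SD of 1.13 was the widest of any member in any group. Epsti1 rose by 1.20 ± 0.34 over both backgrounds (SE, limma adjusted p = 0.0282), and its difference was alike without cabozantinib (1.12 ± 0.51) and with it (1.29 ± 0.45).

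Rtp4, which encodes a chaperone of receptors, had 9.38, 9.39, 9.28 and 9.05 in Combination and 10.36, 10.06 and 10.02 in AntiPD1. It had 9.02, 7.99, 9.34, 8.98 and 9.26 in Cabozantinib and 9.58, 9.27, 9.61 and 9.14 in Placebo. AntiPD1 was above all others, and Combination lay within the joint range of Cabozantinib and Placebo. Rtp4 rose by 0.55 ± 0.17 over both backgrounds (SE, limma adjusted p = 0.0351), a call kept in 15 of 25 other settings. The dimmer of its 2 probe sets had 0.26 in AntiPD1 minus Placebo and -0.16 in Combination minus Cabozantinib. The probe set used had 0.74 and 0.36, and the call was lost with the mean of all probe sets of a gene. Ifi27l2a, Tor3a, Xaf1 and Ifi35 did not pass, with antibody differences of 0.57, 0.42, 0.23 and 0.11.

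A further question was what cabozantinib changed on top of the antibody. In Combination against AntiPD1, 34 of the 35 members had the lower mean in Combination, with a median of -0.46 beside 0.00 over all genes, 49.5% of which were lower. In 25 members every Combination tumour lay below every AntiPD1 tumour, as did 4.42% of all genes. Only Mx1 passed, where 0.228% of all genes were called lower and 0.00585% higher. It fell by 1.06 ± 0.19 on the log2 scale (SE, limma adjusted p = 0.0336). This call was lost without AntiPD1 replicate 1 or 3 and without any 1 of the 4 Combination tumours, and 5 members passed without Cabozantinib replicate 2. At an unadjusted p under 0.05, 19 members were lower, beside 3.94% of all genes.

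The largest of these differences, none of them past the threshold, were -1.65 ± 0.41 for Ifit3, -1.59 ± 0.37 for Ifit1, -1.50 ± 0.40 for Rsad2 and -1.40 ± 0.32 for Irf7 (SE, limma adjusted p between 0.132 and 0.214). The smallest were found for Isg20, Parp9 and Dtx3l, at 0.00, -0.04 and -0.07. This comparison and AntiPD1 against Placebo share the 3 AntiPD1 tumours, so a high signal in those tumours enters both with opposite signs. The difference of Rsad2 was 1.87 in AntiPD1 against Placebo and -1.50 in Combination against AntiPD1. For Irf7 the pair was 1.21 and -1.40, for Ifit1 1.37 and -1.59, and for Epsti1 1.12 and -0.47.

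Whether the 2 drugs together differ from the sum of each alone was asked with the interaction. It passed for 0 of the 35 members and for 0% of all genes with limma. The interaction was below 0 for 33 members, with a median of -0.24 beside 0.00 over all genes and a range of -1.16 to 0.17. At an unadjusted p under 0.05, 6 members were lower and 0 higher, beside 1.42% and 1.16% of all genes. The most negative values were -1.16 ± 0.53 for Rsad2 (95% interval -2.29 to -0.04) and -1.05 ± 0.54 for Ifit3 (-2.21 to 0.11). The intervals are wide, and the call that the antibody effect differs with cabozantinib was made for no member.

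For cabozantinib alone no member was called. Of 35, 0 passed with limma in Cabozantinib against Placebo, where 0.111% of all genes were called higher and 0.146% lower. The lower mean was in Cabozantinib for 26 members, with a median of -0.05 beside 0.00 over all genes. The median was -0.19 without Cabozantinib replicate 3, -0.18 without Placebo replicate 2, -0.16 without Placebo replicate 4, -0.15 without Cabozantinib replicate 5 and -0.08 without Cabozantinib replicate 4. The members lower in Cabozantinib fell in number to 18 without Cabozantinib replicate 2 or Placebo replicate 1. At an unadjusted p under 0.05, 0 were higher and 4 lower, Eif2ak2, Ifih1, Rtp4 and Usp18, with differences of -0.43, -0.44, -0.49 and -0.34, beside 5.91% of all genes higher and 7.07% lower.

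Dimmer and brighter members differed in their medians in both comparisons that hold the AntiPD1 tumours, and the relation was not tested. In AntiPD1 against Placebo the 18 members with mean signals of 5.14 to 8.29 had a median difference of 0.68, and the 17 with mean signals of 8.50 to 10.41 a median of 0.31. In Combination against AntiPD1 the medians were -0.61 and -0.25. The medians of all genes in these 2 signal ranges were between -0.08 and -0.01 in both comparisons. Rsad2, with the largest difference in AntiPD1 against Placebo, was among the brighter members.

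Members with and without the response element can be set side by side. The 10 that carried it had a median antibody difference of 0.56 and 8 called, and the 14 whose promoters did not had a median of 0.29 and 4 called. The 11 with no promoter in the table had a median of 0.36 and 3 called. All these calls were higher, as were 8.33% of all genes in the antibody average. Whether the element goes with the size of the difference was not tested. Oas3 and Stat2 carried the element and were not called, while Irf7, Epsti1, Cmpk2 and Ifit2 were called without it in this window.

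Upstream of these genes, most of the interferon genes themselves were at background. Of 18 listed type I interferon and receptor genes 12 were measured, and 9 of the 12, among them Ifnb1, had every group mean below the lowest array median. Ifna7, an interferon alpha gene and the exception among the interferons, averaged 5.33 in Combination, 5.05 in AntiPD1, 5.40 in Cabozantinib and 5.01 in Placebo, near the array medians. Ifnar1 had group means of 8.35 in Combination, 8.37 in AntiPD1, 8.28 in Cabozantinib and 8.26 in Placebo. Ifnar2 rose by 0.35 ± 0.10 in Combination against Placebo (SE, limma adjusted p = 0.0418), the 1 gene of the 12 called there. In that comparison 3.71% of all genes were called higher and 6.64% lower. In the antibody average 1 of the 12 passed, Ifnab, which fell by 0.18 ± 0.05 with all group means between 4.01 and 4.22, at background. Of all genes 9.66% fell there.

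Sensors and adaptors outside the member list were measured for 15 of 20 names. Over both backgrounds 7 of the 15 rose and 0 fell, beside 8.33% and 9.66% of all genes. The 4 with the largest statistics were Tlr7 (1.72 ± 0.29, limma adjusted p = 0.0101), Tlr8 (1.33 ± 0.29, 0.0137), Irf5 (0.84 ± 0.21, 0.0194) and Unc93b1 (1.03 ± 0.27, 0.0226). Tlr7 and Tlr8 sense RNA in endosomes, Unc93b1 carries them there and Irf5 acts below them. Tlr7 and Tlr8 also rose in Combination against Placebo, by 1.70 ± 0.41 and 1.45 ± 0.40 (SE, limma adjusted p = 0.0266 and 0.0383), a comparison in which no member rose.

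Of 11 measured signal transduction genes of 12 listed, 5 rose over both backgrounds and 0 fell, beside 8.33% and 9.66% of all genes. They were led by Ptpn6 (0.68 ± 0.16, SE), a phosphatase of blood cells. Irf2 (0.38 ± 0.11), Tyk2 (0.36 ± 0.11) and Jak1 (0.46 ± 0.14) followed. These named genes had limma adjusted p between 0.0161 and 0.0385. Other type I interferon induced genes were measured for 49 of 59 names. Of these 49, 13 rose over both backgrounds and 0 fell, beside the same shares of all genes. Those that rose were led by Ifit1bl1 (1.11 ± 0.22), Trex1 (0.78 ± 0.16), Daxx (0.34 ± 0.08) and Slfn8 (1.28 ± 0.29). The median of the 49 was 0.25 in AntiPD1 against Placebo and -0.20 in Combination against AntiPD1, where 46 of the 49 were lower in Combination and 0 passed.

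Genes known for induction by interferon gamma, 22 measured of 26 listed, had another pattern between Combination and AntiPD1. All 22 were higher in AntiPD1 than in Placebo, with a median of 0.20, and 12 were higher in Combination than in AntiPD1, with a median of 0.03. None passed in either comparison or in the antibody average with limma. In Combination against Placebo 1 of the 22 passed, where 3.71% of all genes were called higher and 6.64% lower. It was Nos2, which encodes inducible nitric oxide synthase and rose by 1.68 ± 0.49 (SE, limma adjusted p = 0.0444). Whether the lists differ in their change was not tested.

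**Figure D4:**
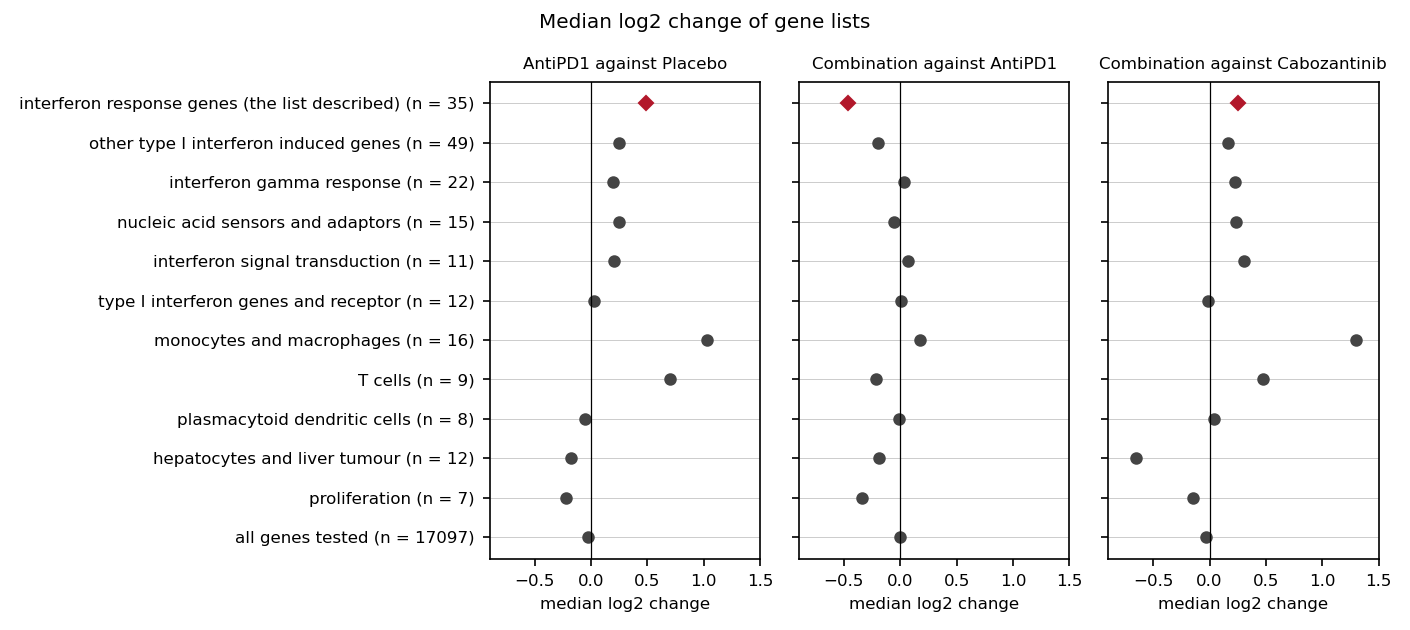
Points are the median log2 change of each gene list, with the number of genes measured, in AntiPD1 against Placebo, Combination against AntiPD1 and Combination against Cabozantinib. The interferon response genes are at 0.49, -0.46 and 0.25, the interferon gamma genes at 0.20, 0.03 and 0.22, and the monocyte and macrophage genes at 1.03, 0.18 and 1.30.

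Markers of several cell types rose in part with the antibody, in an average where 8.33% of all genes rose and 9.66% fell. Of 16 measured monocyte and macrophage markers (18 listed), 14 rose in the antibody average. Their mean level was 10.097 to 10.65 in Combination, 10.13 to 10.54 in AntiPD1, 7.68 to 10.00 in Cabozantinib and 8.46 to 9.72 in Placebo, and none of the 16 was at background in every group. So in AntiPD1 and Combination both stood above Placebo and Cabozantinib, and their part in the antibody change of the members was not tested. Between Combination and AntiPD1, where 34 members were lower, the macrophage level differed by -0.01 (exact permutation p = 0.971, two-sided, n = 4 and 3).

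Endothelial markers, all 10 measured and none at background in every group, differed more between those groups. Their level was 5.54 to 5.67 in Combination, 6.94 to 7.67 in AntiPD1, 4.99 to 5.64 in Cabozantinib and 5.79 to 6.64 in Placebo. In Combination against AntiPD1 6 of the 10 fell, where 0.228% of all genes were called lower, with a median over the 10 of -1.34. In the antibody average 7 rose, beside 8.33% of all genes. The endothelial level differed by -1.57 between Combination and AntiPD1 and did not pass (two-sided exact permutation p = 0.0571, adjusted 0.657 over 23 measures). That p is the smallest these group sizes allow. The part of endothelial markers in the members' differences was not tested. T cell markers, 9 measured of 12 listed, had levels of 7.79 to 8.65 in Combination, 8.25 to 8.64 in AntiPD1, 6.70 to 8.52 in Cabozantinib and 7.48 to 8.20 in Placebo.

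Fibroblast markers, all 10 measured, had 5 that rose in the antibody average. Their level was 8.98 to 9.41 in Combination, 8.92 to 9.63 in AntiPD1, 7.20 to 9.59 in Cabozantinib and 7.92 to 8.66 in Placebo, so that Combination and AntiPD1 lay above Placebo. Of the neutrophil markers 3 of 10 measured (12 listed) rose, with levels of 6.30 to 7.25 in Combination, 6.53 to 7.84 in AntiPD1, 6.41 to 7.45 in Cabozantinib and 5.59 to 6.56 in Placebo. Of the B cell and plasma cell markers 2 of 6 measured (8 listed) rose. Of the T cell markers 1 of 9 rose, a share near the 8.33% of all genes. The mean level of 3 Y-linked genes, Kdm5d, Eif2s3y and Uty, in these tumours of male hosts was 6.58 to 7.33 in Combination, 6.75 to 7.10 in AntiPD1, 5.31 to 6.48 in Cabozantinib and 5.44 to 6.42 in Placebo. Each tumour given the antibody was above each tumour without it. The level differed by 0.97 between AntiPD1 and Placebo (two-sided exact permutation p = 0.0571, adjusted 0.146 over 23 measures) and by 1.002 between Combination and Cabozantinib (p = 0.0159, adjusted 0.122). The part of these markers in the members' differences was not tested.

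Plasmacytoid dendritic cells, which are known as strong makers of interferon alpha, could not be judged well from these arrays. Of 10 listed markers 8 were measured, Siglech not among them, and 5 of the 8 were at background in every group. None rose in the antibody average, where 5 of the 8 had a difference above 0. Tcf4, which other cells use too, fell by 0.42 ± 0.11 (SE, limma adjusted p = 0.0236).

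A measure of RNA quality, the Actb 3' minus 5' signal, did not pass its test between groups. The Actb 3' minus 5' signal was 0.410 to 0.468 in Combination, 0.447 to 0.453 in AntiPD1, 0.427 to 0.513 in Cabozantinib and 0.453 to 0.539 in Placebo. Each AntiPD1 value was below each Placebo value, with a two-sided exact permutation p of 0.0571, the smallest that 3 against 4 tumours allow, and 0.146 after adjustment over 23 measures. Combination and Cabozantinib overlapped, with a difference of -0.02 (exact permutation p = 0.317, two-sided, n = 4 and 5). Its part in the members' differences was not tested.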

How the data were processed

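The authors deposited log2 probe set signals of 16 arrays, made per the submitters' processing notes with RMA and affy 1.62.0, settings not stated there. Per the labels' protocols, 50 ng of total RNA per fresh-frozen tumour was used. The table held 45141 probe sets and 0 columns without a sample, of which 104 were controls. The platform annotation gave 28898 probe sets 1 gene symbol, 551 several and 15588 none, and 28689 of the 28898 matched RefSeq. Keeping the brightest probe set of each symbol left 17097 genes, 7180 with several probe sets, as had 12 members.

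Genes were fitted with limma 3.58.1 in R 4.3.3 (lmFit and eBayes, 4 group means, no covariate), with 12 residual and 2.47 prior degrees of freedom, with Benjamini-Hochberg adjustment over the 17097 genes in each of 7 comparisons and a threshold of 0.05. Intervals are at 95%. Levels per tumour were tested by exact permutation, two-sided, in scipy 1.17.1. The gene test was tested on simulated data. Per-tumour values are printed for members called in any comparison, and up to 4 genes of another list by the size of the moderated statistic. Ifna7, Kdm5d, Eif2s3y, Uty, Ifnar1, Ifnb1, Alb and Afp were named after their values were seen. The members and gene lists were chosen with earlier results of these data known. Arrays carry no read depth, and their number limits the precision.

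Alternatives covered the probe set, dim genes, the groups in the fit, array weights, the variance prior, the normalization, the number in the sample titles as a random block and each tumour left out. Leaving out the muscle-rich or adipocyte-rich tumours was chosen after seeing the data.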

Additional observations from a re-analysis of the deposited data

Results flagged for a closer look

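Of 105 member and group combinations with 4 or 5 tumours, 7 held a tumour that stood apart from its group by Dixon's test at the 95% level, a rate near the 1 in 20 that chance gives. Of these 7, 4 were in Cabozantinib replicate 2, an adipocyte-rich tumour with the lowest macrophage, T cell and fibroblast marker levels of the 16. Its Irf9 signal was 7.08, against 7.87 to 8.16 in the other Cabozantinib tumours, its Zbp1 signal 9.01 against 9.87 to 10.22, and its Rtp4 signal 7.99 against 8.98 to 9.34. Ifi27l2a went the opposite way there, at 11.23 against 9.58 to 9.75.

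In the Combination group Dhx58 was 6.77 in replicate 2, against 6.22 to 6.29 in the others. Oas3 was 5.16 in replicate 3 against 5.00 to 5.01, and Zbp1 was 9.83 in replicate 4 against 10.06 to 10.103. What sets these tumours apart was not tested.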

How the results depend on the processing

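The median difference of the members kept its sign in every comparison and setting, at 0.37 to 0.65 in AntiPD1 against Placebo, -0.51 to -0.36 in Combination against AntiPD1, 0.05 to 0.34 in Combination against Cabozantinib, 0.0073 to 0.22 in Combination against Placebo, -0.19 to -0.01 in Cabozantinib against Placebo, -0.45 to -0.19 in the interaction and 0.26 to 0.43 in the antibody average. Counts of called members moved more, and the cause was not tested. These counts, here and with 1 tumour left out, are given without the share of all genes called in the same setting. They cannot show whether the move is particular to the members. With only the 2 compared groups in the fit, 2 members passed in AntiPD1 against Placebo, 2 in Combination against Placebo and 2 in Combination against AntiPD1, beside 0, 1 and 1. With array weights, which gave AntiPD1 replicate 1 a weight of 3.23, 18 passed in AntiPD1 against Placebo, 9 in Combination against AntiPD1 and 1 in Combination against Cabozantinib. Without the muscle-rich tumours AntiPD1 2, Cabozantinib 4 and Combination 4, 7 passed in the antibody average and 0 in Combination against AntiPD1. Without Cabozantinib 2 and Combination 1, the tumours with the highest adipocyte levels, 2 passed in Combination against AntiPD1 and 0 in Combination against Placebo. Combination 2, with an adipocyte level of 9.35, was kept in that fit. Both sets of tumours left out were chosen after seeing the data.

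Leaving out 1 tumour at a time gave 0 to 1 members in AntiPD1 against Placebo, 0 to 1 in Combination against Placebo, 0 to 3 in Combination against Cabozantinib, 0 to 5 in Combination against AntiPD1 and 4 to 17 in the antibody average, beside 15. The 3 came without Cabozantinib replicate 3, the 5 without Cabozantinib replicate 2 and the 4 without AntiPD1 replicate 1 or 2. No named change reversed. Of the antibody calls, Ddx60, Dhx58, Rsad2 and Trim30a passed in all 25 other settings. Usp18 in Combination against Placebo passed in 21 of 26 and Mx1 in Combination against AntiPD1 in 17 of 26.

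The replicate numbers follow the order of deposit and pair no tumours. Some tumours of different groups share a number in their titles, 2 of AntiPD1 with 2 of Placebo and 1 of Combination with 1 of Cabozantinib. Within a group, Cabozantinib replicates 2 and 3 share the number 11, and their mean member deviations were -0.80 and 0.11. What the number marks is not stated, so these 2 tumours may not be independent. The title number as a random block (correlation -0.103) left the same 15 antibody calls.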
